A study of Mus musculus with 17 samples.

Results

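The genes described are 10 components of macroautophagy and its cargo receptors: Ulk1, Becn1, Wipi1, Atg5, Atg7, Atg16l1, Map1lc3b, Gabarapl1, Sqstm1 and Optn. They were chosen by symbol, and each symbol occurred once among the 21683 rows of the expression table. Macroautophagy encloses cytoplasmic material in a double-membraned vesicle, the autophagosome, which fuses with lysosomes. The ULK kinase complex starts the process, the class III PI3-kinase complex makes the lipid phosphatidylinositol 3-phosphate that WIPI proteins bind, and a conjugation machinery attaches ATG8 proteins (LC3 and GABARAP) to the growing membrane. Cargo receptors such as p62 bind both ubiquitinated cargo and ATG8 proteins, and in macrophages the pathway is known for clearing bacteria, damaged mitochondria and lipid droplets.

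RNA sequencing was performed on cultured peritoneal macrophages of C57BL/6 mice aged 8 weeks, all carrying loxP-flanked alleles of Ikbkb, the gene of the kinase IKKβ. The mice, described in the study's methods as male, had received 1 mL of 3% thioglycollate, given 3 days before collection according to the labels. The cells attached for 4 h and were then exposed for 12 h to 100 nM HIV protein Tat, a recombinant fragment made in bacteria, or to PBS. IKKβF/F cells were given PBS (F/F PBS, n = 6 libraries) or Tat (F/F Tat, n = 6), and IKKβΔMye cells, which in addition carry 1 LysM-Cre knock-in allele that deletes Ikbkb in myeloid cells, were given Tat (ΔMye Tat, n = 5). IKKβΔMye cells given PBS were not analysed here, so a difference between the Tat groups can include one that was present before Tat.

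Values are TPM, a transcript level normalised for transcript length and library total, so levels of different genes can be set beside each other. The listed TPM summed to between 889318 and 903576 per library. No read counts can be had from such values, so the depth behind them is unknown and precision rests on the spread between libraries. Ikbkb in ΔMye Tat was 70.7% of its F/F Tat mean, with no overlap of the libraries. All 7 macrophage markers examined averaged at least 1 TPM in every group, but their summed TPM was 25687 to 26692 in F/F PBS, 10012 to 10572 in F/F Tat and 7865 to 8165 in ΔMye Tat, with no overlap. Most of this was Lyz2, the locus that carries LysM-Cre, at means of 22382, 6993 and 4333 TPM in that order. Csf1r averaged 381, 64.0 and 104 TPM. Adgre1, Cd68 and Itgam also had lower means with Tat in F/F cells, whereas Cd14 (203 against 842 TPM with Tat) and Mertk (15.4 against 20.1 TPM) had higher ones. Summed TPM of neutrophil markers was 50.2 to 58.6 in F/F PBS, 62.0 to 76.0 in F/F Tat and 85.7 to 101 in ΔMye Tat. Nearly all of it was S100a8, which activated macrophages also express, whereas Ly6g, Cxcr2 and Mpo averaged at most 0.367 TPM in any group. Summed T cell markers reached at most 6.30 TPM and were lowest in F/F Tat, at 1.30 to 2.07 TPM against 4.12 to 5.99 TPM in ΔMye Tat. The part of these markers in the results was not tested. In such bulk cultures, fewer cells that express a gene and less RNA per cell cannot be told apart.

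In unstimulated F/F macrophages the levels of the 10 genes spanned a 437-fold range of mean TPM. Sqstm1 (1772 TPM) stood far above Gabarapl1 (129 TPM) and Map1lc3b (108 TPM), whose libraries overlapped. Atg7 (55.8 TPM), Atg5 (46.6 TPM), Becn1 (39.0 TPM) and Optn (34.2 TPM) followed, and the ranges of Atg5 and Becn1, and of Becn1 and Optn, overlapped. Atg16l1 (15.004 TPM), Ulk1 (7.51 TPM) and Wipi1 (4.06 TPM) were lowest and did not overlap with their neighbours. With Tat, Atg7 and Atg5 moved below Becn1, Optn and Atg16l1, and the range from Wipi1 to Sqstm1 widened to 1553-fold. In ΔMye Tat the range was 1318-fold, and Atg5, Atg7 and Atg16l1 came in that order with overlapping libraries. None of the 10 genes was at 0 in any library.

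**Figure D1:**
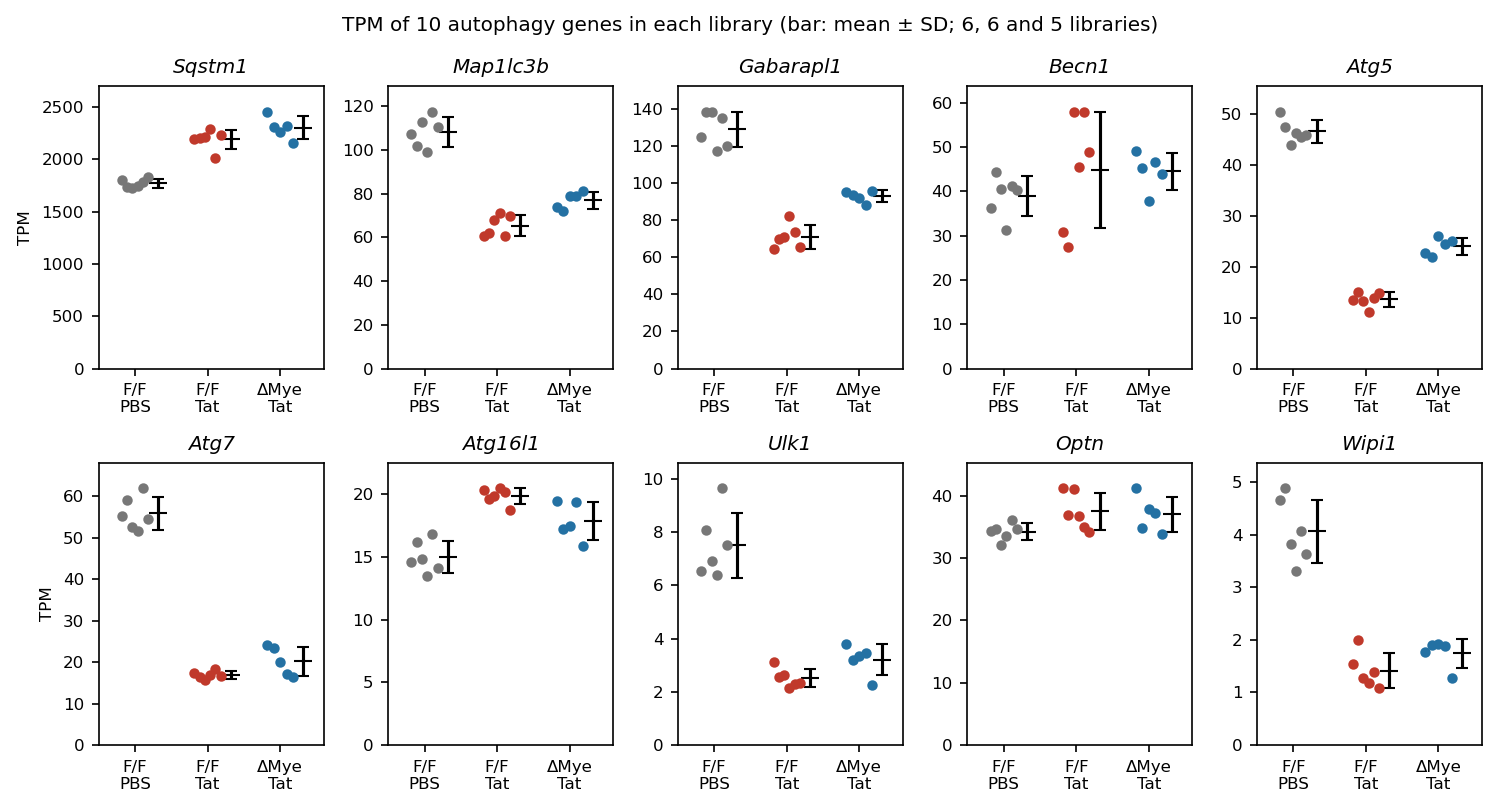
TPM of each of the 10 genes (vertical axes, linear, from 0) in the 6 F/F PBS, 6 F/F Tat and 5 ΔMye Tat libraries, 1 point per library, with the mean and SD beside the points. Atg5, Atg7, Ulk1, Wipi1, Gabarapl1 and Map1lc3b lie lower in every F/F Tat library than in any F/F PBS library, Sqstm1 and Atg16l1 lie higher, and Becn1 splits into 2 low and 4 high F/F Tat libraries.

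The first comparison asked how Tat exposure changed these genes in macrophages with intact IKKβ. With Tat, 6 of the 10 genes were lower and 2 were higher past an adjusted p of 0.01 (limma on log2(TPM + 0.1), adjusted over the 10451 genes that reached 1 TPM in 5 libraries or more). The lower genes were Atg5, Atg7, Ulk1, Wipi1, Gabarapl1 and Map1lc3b, and the higher genes were Sqstm1 and Atg16l1. Atg5 and Atg7, both of the conjugation machinery, also passed a fold change of 3, the study's second threshold. Among all tested genes 67.6% were lower and 17% were higher by that test, and 19.4% were lower past both thresholds and 5.21% higher. The count of 6 lower and 2 higher genes was thus close to that background. The same 8 genes had groups without overlap, 6 lower and 2 higher, where 62.4% of all genes were lower and 15.3% higher without overlap.

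Across all tested genes the median log2 difference was -0.65 with Tat and 0.22 between the Tat groups, and -0.43 when ΔMye Tat was set against F/F PBS. A second value is therefore given for each gene after libraries were brought to a common median ratio over 8575 genes (median-ratio scaling). The medians were then -0.11, 0.02 and -0.09. The 10 genes had a median Tat difference of -0.79 as deposited and -0.25 after scaling. After scaling 5 of them were lower with Tat and 4 higher, beside 41.9% and 33.4% of all genes. Becn1 and Optn joined the higher genes, Map1lc3b no longer passed (-0.18, adjusted p = 0.0103, limma) and no gene kept a fold change over 3, which 10.5% of all genes did in the lower and 7.98% in the higher direction.

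The second comparison asked how the genes differed between Tat-treated macrophages of the F/F and ΔMye genotypes. Atg5, Gabarapl1 and Map1lc3b were higher in ΔMye Tat than in F/F Tat, none of the 10 was lower at an adjusted p under 0.01, and none passed the fold threshold. In the background, 38.8% of all genes were higher and 8.87% lower, and past both thresholds 0.44% and 0.316%. Libraries did not overlap for the same 3 genes, where 28.6% of all genes were higher and 8.01% lower without overlap. After scaling Atg5 alone was higher, while Atg16l1, Optn and Sqstm1 were lower, beside 17% of all genes higher and 18.4% lower. The median of the 10 differences was 0.24 as deposited and 0.03 after scaling. Both comparisons share the F/F Tat libraries, so the 2 sets of differences are not independent.

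**Figure D2:**
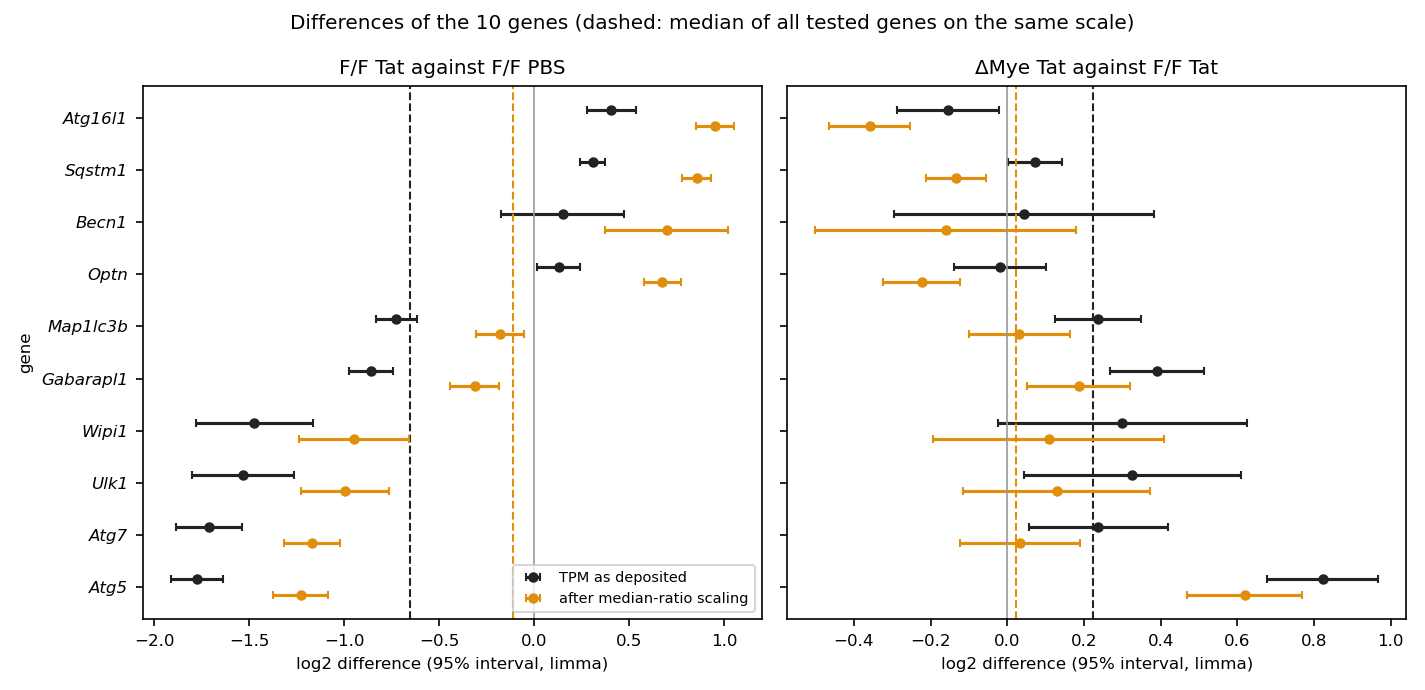
Log2 differences of the 10 genes with 95% intervals from limma (horizontal axes) of Tat against PBS in F/F cells (left) and of the Tat groups, ΔMye minus F/F (right), from the TPM as deposited (black) and after median-ratio scaling (orange). Dashed lines are the medians of all tested genes on each scale (-0.65 and -0.11 on the left, 0.22 and 0.02 on the right), and Atg5 lies farthest to the left with Tat and farthest to the right in ΔMye Tat.

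Ulk1 encodes the kinase of the initiation complex that AMPK and mTORC1 regulate (chromosome 5, 110784488 to 110810097 of GRCm38). Its TPM ran from 6.38 to 9.66 (median 7.22) in F/F PBS, and in F/F Tat from 2.16 to 3.13 (median 2.45). The ΔMye Tat libraries were at 3.80, 3.21, 3.34, 3.46 and 2.26 TPM. All Tat libraries of either genotype lay below all PBS libraries, and 4 of the 5 ΔMye libraries lay above all F/F Tat libraries. With Tat, Ulk1 fell by 1.53 on the log2 scale (standard error 0.13, adjusted p = 1.02e-09, limma), or by 1.00 after scaling. With quantile normalization, an alternative scaling, the Tat difference was -0.60 (adjusted p = 2.15e-05, limma). The difference between the Tat groups was 0.33 (adjusted p = 0.0440, limma), or 0.13 when scaled (adjusted p = 0.382). Without ΔMye library 23, the lowest of its group, it was 0.44 with an adjusted p of 0.00432 (limma).

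Becn1 encodes Beclin 1, the scaffold of the class III PI3-kinase complex (chromosome 11, 101285952 to 101302286). In F/F PBS its TPM was 31.4 to 44.5 (median 40.4). The F/F Tat libraries were at 30.9, 27.5, 58.0, 45.5, 57.9 and 48.9 TPM, and the ΔMye Tat libraries at 49.1, 45.3, 37.9, 46.6 and 43.9 TPM. Libraries 7 and 8 of F/F Tat lay below every F/F PBS library and the other 4 above, so the groups overlapped. The SD of log2 Becn1 in F/F Tat was 0.46, and only 8 of the 2734 genes averaging 30 TPM or more in that group, Becn1 among them, had one as large (median 0.06). Becn1 did not pass with Tat (0.15, 95% interval -0.17 to 0.47, adjusted p = 0.361, limma). It was higher after scaling (0.70, adjusted p = 0.000410) and also, as deposited, without libraries 7 and 8 (0.43, adjusted p = 0.000471, limma), a choice made after the values were seen. The difference between the Tat groups was 0.04 (95% interval -0.29 to 0.38, limma) and -0.16 after scaling. Becn1 has 17 annotated transcripts, and Cntd1, which overlaps it on the other strand, was at most at 0.0790 TPM. Of the 31-base sequences of Becn1, 2.04% also occur in other genes, and St13, at up to 161 TPM, shared 0.34%. The part of these in the spread of Becn1 was not tested.

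Wipi1 encodes a protein that binds phosphatidylinositol 3-phosphate on the forming membrane (chromosome 11, 109573331 to 109611967). It had the lowest levels of the 10 genes, at 3.32 to 4.88 TPM (median 3.94) in F/F PBS, and in F/F Tat 1.08 to 2.0 TPM (median 1.34). In ΔMye Tat the values were 1.77, 1.90, 1.92, 1.89 and 1.27 TPM. Every Tat library lay below every PBS library, and the 2 Tat groups overlapped in full. The fall with Tat was -1.47 (standard error 0.15, adjusted p = 1.43e-08, limma) and -0.95 after scaling. In the 26 settings that tested it by the adjusted p alone, the difference ran from -1.63 to -0.40. Its adjusted p was at most 0.00969 (limma). At levels this low the pseudocount of 0.1 TPM understates a change. The difference of 0.30 between the Tat groups did not pass (adjusted p = 0.101, limma).

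Atg5, Atg7 and Atg16l1 belong to the conjugation machinery. ATG7 is the E1-like enzyme that activates ATG12 and the ATG8 proteins, ATG5 is the protein to which ATG12 is joined, and ATG16L1 brings the ATG12-ATG5 conjugate to the membrane. Atg5 and Atg7 had the largest falls of the 10 genes with Tat, whereas Atg16l1 rose. The promoters of Atg5 and Atg7 are shown because these 2 genes fell in parallel with Tat, while only Atg5 passed between the Tat groups. Each is the RefSeq sequence from 250 bases before to 50 after a start site (GRCm38.p6), 5′ to 3′ on the strand of the gene, with the letters CACGTG, the E-box core, in capitals.
Atg5 (chr10:44268089-44268388, plus strand): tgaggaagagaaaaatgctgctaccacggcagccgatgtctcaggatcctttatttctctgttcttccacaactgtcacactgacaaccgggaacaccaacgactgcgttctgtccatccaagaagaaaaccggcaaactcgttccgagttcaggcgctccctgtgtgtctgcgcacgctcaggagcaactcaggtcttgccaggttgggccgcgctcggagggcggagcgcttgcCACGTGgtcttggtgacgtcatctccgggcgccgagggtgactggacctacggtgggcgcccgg
Atg7 (chr6:114670846-114671145, plus strand): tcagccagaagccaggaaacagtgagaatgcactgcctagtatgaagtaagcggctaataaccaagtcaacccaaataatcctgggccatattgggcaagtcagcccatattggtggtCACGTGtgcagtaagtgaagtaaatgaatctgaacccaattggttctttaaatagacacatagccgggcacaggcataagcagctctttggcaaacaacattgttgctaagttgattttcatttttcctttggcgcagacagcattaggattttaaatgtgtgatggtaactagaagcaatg
The E-box core begins 14 bases before the start site in the Atg5 window (position -14) and at -132 in that of Atg7. The Atg7 window lies inside the annotated gene, downstream of its annotated start. CACGTG, which reads the same on both strands, occurred in 7.15% of all 32851 promoters and in 2 of the 8 promoters matched for the 10 genes. Becn1 and Atg16l1 had no entry.

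Atg5 (chromosome 10, 44268358 to 44364291) was at 43.9 to 50.5 TPM (median 46.0) in F/F PBS, and in F/F Tat at 11.03 to 15.02 TPM (median 13.6). The 5 ΔMye Tat libraries were at 22.8, 21.9, 26.1, 24.4 and 24.97 TPM. The 3 groups did not overlap at all, with ΔMye Tat between the others. The fall with Tat was -1.78 (standard error 0.07, adjusted p = 2.56e-15, limma), a 3.43-fold change, and -1.23 after scaling. Between the Tat groups Atg5 was higher in ΔMye by 0.82 (standard error 0.07, adjusted p = 8.61e-09, limma) and by 0.62 after scaling (adjusted p = 7.78e-07), in 5 of 5 libraries. It was the 1 gene of the 10 with an adjusted p under 0.01 in this comparison under all 27 settings that used this threshold alone, and with a fold change of 3 required as well it did not pass. Exact two-sided permutation tests gave p = 0.00216 for both comparisons, the smallest these group sizes allow. The mean of ΔMye Tat was 51.6% of the F/F PBS mean, against 29.2% for F/F Tat.

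Atg7 (chromosome 6, 114643097 to 114860614) was at 51.6 to 61.9 TPM (median 54.9) in F/F PBS, and in F/F Tat at 15.8 to 18.4 TPM (median 16.7). Its ΔMye Tat values were 24.1, 23.4, 19.98, 17.2 and 16.3 TPM. All Tat libraries lay below all PBS libraries, while 3 of the 5 ΔMye libraries exceeded every F/F Tat library and the other 2 fell within their range. Atg7 fell by 1.71 with Tat (standard error 0.08, adjusted p = 1.67e-13, limma), a 3.28-fold change, and by 1.17 after scaling. The difference between the Tat groups was 0.24 (standard error 0.09, adjusted p = 0.0244, limma), or 0.03 when scaled (adjusted p = 0.738). Leaving out ΔMye library 22 or 23 brought the first value to 0.29 or 0.31, with adjusted p of 0.00897 and 0.00295 (limma). The SD of log2 Atg7 was 0.25 in ΔMye Tat and 0.08 in F/F Tat.

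Atg16l1 (chromosome 1, 87755870 to 87792428) moved the other way. Its TPM was 13.5 to 16.8 (median 14.7) in F/F PBS, and in F/F Tat 18.7 to 20.5 (median 20.01). The ΔMye Tat libraries were at 19.4, 17.2, 17.4, 19.4 and 15.9 TPM. F/F Tat lay wholly above F/F PBS, and ΔMye Tat overlapped with both. The rise with Tat was 0.41 (standard error 0.06, adjusted p = 4.22e-06, limma) and 0.95 after scaling. Between the Tat groups the difference was -0.15 (adjusted p = 0.0445, limma), and once scaled it passed at -0.36 (adjusted p = 8.57e-06). Up to 2.04% of the 31-base sequences of Atg16l1 also occur in other genes.

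Map1lc3b encodes LC3B, the ATG8 protein most used to mark autophagosomes, and Gabarapl1 encodes a member of the GABARAP branch. Both fell with Tat and were higher in ΔMye Tat than in F/F Tat on the TPM as deposited. Map1lc3b (chromosome 8, 121590361 to 121598760) was at 99.3 to 118 TPM (median 109) in F/F PBS, and in F/F Tat at 60.7 to 71.3 TPM (median 65.0). The ΔMye Tat libraries were at 73.9, 72.2, 78.8, 78.8 and 81.3 TPM, above every F/F Tat library and below every F/F PBS library. The differences were -0.73 with Tat (standard error 0.05, adjusted p = 6.27e-11, limma) and 0.24 between the Tat groups (standard error 0.05, adjusted p = 0.000934). Both were near the medians of all genes, and the second was 0.03 after scaling (adjusted p = 0.715, limma). Of the 31-base sequences of Map1lc3b, 7.77% also occur in other genes. The genes that shared the most of them, Gm6055, Gm12727 and Gm6054, are processed pseudogenes. Part of the Map1lc3b reads could have been assigned to these copies.

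Gabarapl1 (chromosome 6, 129533160 to 129542346) was at 117 to 138 TPM (median 130) in F/F PBS, and in F/F Tat at 64.1 to 82.1 TPM (median 70.4). In ΔMye Tat it was at 95.1, 93.4, 91.9, 88.1 and 95.8 TPM. As for Map1lc3b, the 3 groups did not overlap and ΔMye Tat lay between the others. Gabarapl1 fell by 0.86 with Tat (standard error 0.06, adjusted p = 1.80e-11, limma) and by 0.31 after scaling (adjusted p = 0.000105). It was higher by 0.39 in ΔMye Tat (standard error 0.06, adjusted p = 1.42e-05, limma), and the scaled difference of 0.19 did not pass (adjusted p = 0.0219).

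Sqstm1 encodes p62, a cargo receptor that is itself degraded by autophagy and also takes part in NRF2 and NF-κB signalling, and Optn encodes optineurin, a receptor phosphorylated by TBK1. The Sqstm1 promoter is shown because this was by far the most abundant of the 10 transcripts and rose where most others fell. The window follows the same RefSeq definition, and capitals mark a match to the κB consensus.
Sqstm1 (chr11:50210771-50211070, minus strand): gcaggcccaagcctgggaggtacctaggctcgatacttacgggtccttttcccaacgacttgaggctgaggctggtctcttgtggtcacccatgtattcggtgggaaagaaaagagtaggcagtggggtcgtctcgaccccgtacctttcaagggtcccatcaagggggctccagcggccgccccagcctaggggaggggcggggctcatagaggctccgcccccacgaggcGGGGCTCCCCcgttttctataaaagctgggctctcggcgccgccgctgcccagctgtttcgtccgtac
The match begins at position -18. Searched on both strands, the κB consensus occurred in 8.46% of all promoters and in 1 of the 8 matched here. The antioxidant response element core TGACNNNGC, present in 12.4% of all promoters, was not in this window and was found only in that of Map1lc3b among the 8.

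Sqstm1 (chromosome 11, 50199366 to 50210827) was at 1724 to 1831 TPM (median 1766) in F/F PBS, and in F/F Tat at 2015 to 2292 TPM (median 2212). The ΔMye Tat libraries were at 2457, 2314, 2265, 2324 and 2160 TPM. Every Tat library of either genotype exceeded every PBS library, and the 2 Tat groups overlapped. Sqstm1 rose by 0.31 with Tat (standard error 0.03, adjusted p = 2.65e-08, limma), 1.24-fold, and by 0.85 after scaling. The sign of the difference between the Tat groups depended on the scale, at 0.07 as deposited (adjusted p = 0.0736, limma) but -0.13 once scaled (adjusted p = 0.00661).

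Optn (chromosome 2, 5020642 to 5064051) was at 32.1 to 36.1 TPM (median 34.5) in F/F PBS, and in F/F Tat 34.1 to 41.2 TPM (median 36.8). The ΔMye Tat libraries were at 41.2, 34.9, 37.8, 37.2 and 33.9 TPM. All 3 groups overlapped. With Tat the difference was 0.13 (95% interval 0.01 to 0.24, adjusted p = 0.0363, limma), and on the scaled values 0.67 (adjusted p = 6.47e-11). Between the Tat groups it was -0.02 on the TPM as deposited (95% interval -0.14 to 0.10, adjusted p = 0.792, limma) but -0.22 on the scaled values (adjusted p = 0.000839).

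Against F/F PBS, ΔMye Tat showed 6 of the 10 genes lower and 2 higher past the adjusted p (limma), beside 58.8% and 17.5% of all genes. None passed the fold threshold, which together with the adjusted p called 11.1% of all genes lower and 4.38% higher. Libraries did not overlap for the 6 lower genes and for Sqstm1, where 52.8% of all genes were lower and 14.8% higher without overlap. Atg7 had the largest difference (-1.48, against -1.71 for F/F Tat), followed by Ulk1 (-1.21), Wipi1 (-1.17) and Atg5 (-0.95, against -1.78 for F/F Tat). Map1lc3b (-0.49) and Gabarapl1 (-0.47) were the other lower genes, and Sqstm1 (0.38) and Atg16l1 (0.25) the higher ones. After scaling, Map1lc3b (-0.15, adjusted p = 0.0396, limma) and Gabarapl1 (-0.13, adjusted p = 0.0782) no longer passed, while Optn (0.45) and Becn1 (0.54) did. Counts after scaling were 4 lower and 4 higher, beside 37.9% and 30.2% of all genes. Wipi1 passed in 25 of the 26 settings that tested it by the adjusted p alone, with differences from -1.23 to -0.40. These values share the F/F PBS libraries with the Tat comparison.

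Ratios of 2 genes within a library do not change when all its values are divided by the same factor, as in median-ratio scaling. Quantile normalization, an alternative scaling, can change them. The pairs Atg5 with Atg7 and Sqstm1 with Map1lc3b were chosen after their values were seen, so the ratios are given as a description, with no test. The log2 ratio of Atg5 to Atg7 was -0.26 ± 0.11 (SD, n = 6) without Tat and -0.32 ± 0.18 (n = 6) in F/F Tat, a difference of -0.06. In ΔMye Tat it was -0.08, -0.10, 0.38, 0.51 and 0.61 in libraries 19 to 23. All 5 lay above the F/F Tat libraries, which reached at most -0.14, and the mean difference was 0.59. Libraries 19 and 20 stood close to the F/F groups and the other 3 apart from them. With each library left out in turn the difference was 0.50 to 0.68 and the groups did not overlap.

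The log2 ratio of Sqstm1 to Map1lc3b was 4.03 ± 0.09 (SD, n = 6) without Tat and 5.07 ± 0.07 (n = 6) in F/F Tat, a difference of 1.03. The groups could not overlap here, since every Tat library was higher than every PBS library for Sqstm1 and lower for Map1lc3b. In ΔMye Tat it was 5.06, 5.002, 4.84, 4.88 and 4.73, a difference of -0.16 from F/F Tat with overlap, and of -0.20 to -0.12 with each library left out in turn. Sqstm1 made up 80.1% ± 0.921 (SD, n = 6) of the summed TPM of the 10 genes in F/F PBS, 88.9% ± 0.782 (n = 6) in F/F Tat and 87.8% ± 0.356 (n = 5) in ΔMye Tat.

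**Figure D3:**
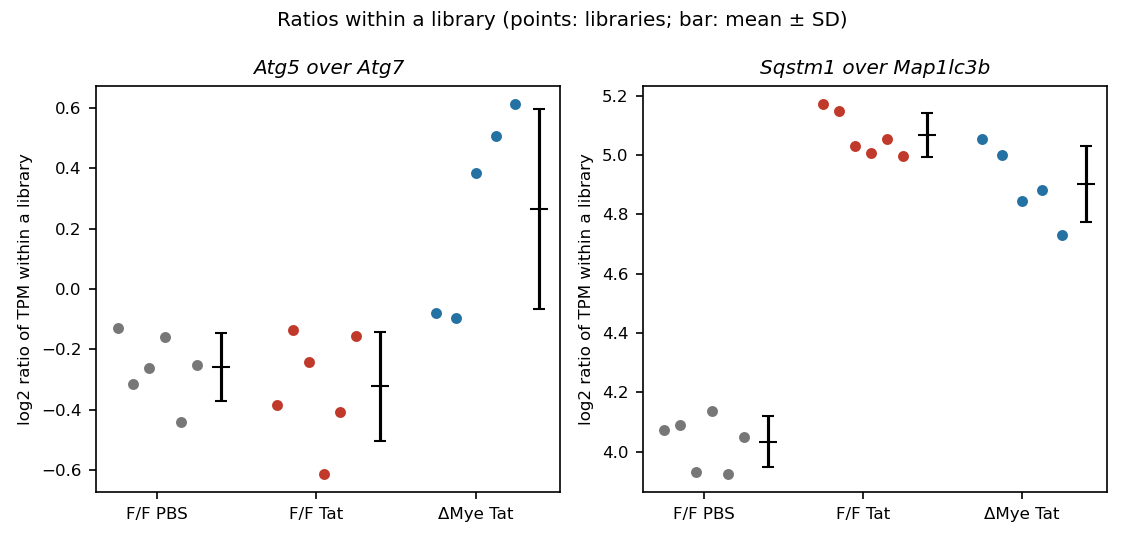
Log2 ratios of TPM within each library (vertical axes) for Atg5 over Atg7 and Sqstm1 over Map1lc3b, 1 point per library with the mean and SD of each group. For Atg5 over Atg7 the 5 ΔMye Tat libraries lie at -0.10 to 0.61, above the F/F Tat libraries. For Sqstm1 over Map1lc3b both Tat groups lie above 4.7 and the F/F PBS libraries below 4.2.

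The 10 genes were set within a list of 71 autophagy genes grouped by role, of which 70 were tested (Atg9b was too low). With Tat, 54 of the 70 were lower and 4 were higher past the adjusted p (limma), beside 67.6% and 17% of all genes. The higher genes were Sqstm1 and Atg16l1, Tax1bp1, another cargo receptor, and Tbk1, the kinase that phosphorylates optineurin. The median of the list was -0.81, against -0.65 for all genes. After scaling 36 were lower and 17 higher, beside 41.9% and 33.4% of all genes, with a median of -0.26 against -0.11. By role, the lower genes as deposited were 4 of 5 in the ULK complex, 6 of 8 in the class III PI3-kinase complex, 6 of 7 among ATG9, ATG2 and WIPI genes, 8 of 11 in conjugation, 5 of 5 ATG8 genes, 8 of 13 receptors, 7 of 8 fusion genes and 10 of 13 regulators. Of the 5 ATG8 genes only Map1lc3a and Gabarapl1 were lower after scaling.

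Past both thresholds, 14 of the 70 genes were lower with Tat and 0 were higher, beside 19.4% and 5.21% of all genes, so the share of lower genes was close to the background. Atg5 and Atg7 were 2 of the 14. After scaling 9 of the 70 were lower past both, without these 2, beside 10.5% of all genes. The largest fall was that of Tfeb, the transcription factor that drives lysosomal and autophagy genes, from 51.3 ± 3.37 TPM (SD, n = 6) to 3.31 ± 0.684 TPM (n = 6), or -3.93 (adjusted p = 5.31e-18, limma). Bnip3l, a mitophagy receptor, fell by 2.696 from 81.1 to 12.5 TPM, and Ncoa4, the receptor that delivers ferritin, fell by 2.27 from 217 to 45.0 TPM. Deptor (-3.66) and Trp53inp1 (-3.44) averaged under 1 TPM with Tat, where the size of the fall is set by the pseudocount. The size of the fall also depends on the pseudocount for Atg16l2, named next, which averaged 0.718 TPM with Tat. The receptors Calcoco1 (-2.35) and Retreg1 (-2.14), the kinase gene Ulk2 (-2.13), the lipid transfer gene Atg2b (-1.88), Atg16l2 (-1.64), and the fusion genes Tecpr1 (-2.35) and Plekhm1 (-1.83) made up the rest. Among genes that reached 10 TPM in a group, the largest differences with Tat in the remaining roles were those of Map1lc3a (-0.99), Atg13 (-0.90), Pik3c3 (-0.93) and Wdr45 (-1.15).

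Between the Tat groups, 29 of the 70 genes were higher in ΔMye Tat and 1 lower, beside 38.8% and 8.87% of all genes, and after scaling 12 were higher and 10 lower, beside 17% and 18.4%. Atg5 was among those higher on both scales. Tfeb was higher by 1.43 (adjusted p = 1.14e-09, limma) at 8.99 ± 0.631 TPM (SD, n = 5), and Ncoa4 by 1.42 (adjusted p = 1.41e-14) at 121 ± 4.63 TPM. Bnip3l was higher by 0.67. The 1 lower gene was Bnip3, a mitophagy receptor induced by low oxygen, at -1.33 (adjusted p = 3.60e-09, limma), named after its value was seen. All 5 ATG8 genes were higher as deposited, by 0.20 to 0.39, and none passed after scaling. The median of the list was 0.21, against 0.22 for all genes.

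**Figure D4:**
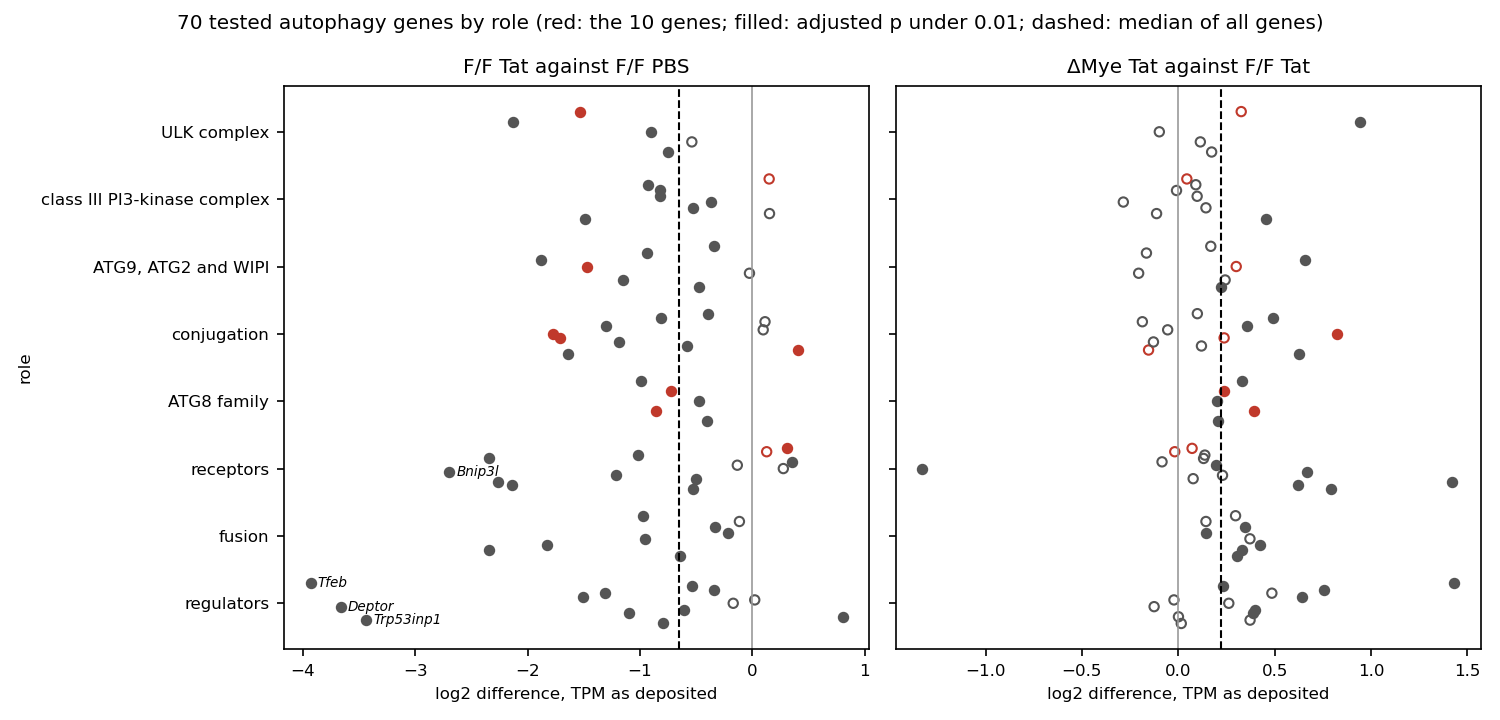
Log2 differences (horizontal axes, TPM as deposited) of the 70 tested autophagy genes by role, of Tat against PBS in F/F cells (left) and of the Tat groups, ΔMye minus F/F (right). Red points are the 10 genes, filled points passed an adjusted p under 0.01, and dashed lines are the medians of all tested genes (-0.65 and 0.22). On the left most points lie below 0, with Tfeb, Deptor and Trp53inp1 lowest. Of the 11 points above 0, the 4 filled ones are Tbk1, Atg16l1, Tax1bp1 and Sqstm1.

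For each gene the tested genes with the most similar pattern were found by the root mean square difference of log2(TPM + 0.1), centred on the F/F PBS mean, over the 17 libraries. For Atg5 these were Faf1 (0.12), Txndc15 (0.12) and Ppp3r1 (0.13), and for Atg7 they were Ctdsp2 (0.11), Dag1 (0.11) and Npc1 (0.11). Sqstm1 was closest to Etf1 (0.06), Anxa5 (0.06) and Ppp2ca (0.07), and Map1lc3b to Bcap31 (0.07), Sdha (0.08) and Drg2 (0.08). The nearest gene to Becn1, Rbm15, was at 0.24, the largest such distance among the 10 genes. Next to it came Dram2 (0.24) and Cct7 (0.25). None of the genes named here belongs to the autophagy list.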

How the data were processed

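RNA-Seq of 17 macrophage libraries was analysed, with groups taken from the sample labels. Per the study's methods, the authors ran Salmon on the reads with the Ensembl GRCm38 annotation and deposited TPM by gene symbol (the version of Salmon, and whether these TPM were scaled between libraries, are not given in the sources used here). The authors' own comparison used edgeR on read counts with TMM normalization between libraries. It was not repeated, since TPM are not counts. The 10451 genes that reached 1 TPM in 5 libraries or more entered limma 3.58.1 (R 4.3.3) as log2(TPM + 0.1) (eBayes with trend, 3 groups in 1 fit, 14 residual degrees of freedom), and adjusted p are Benjamini-Hochberg values over all tested genes. Fold changes are on the log2(TPM + 0.1) scale. The code was tested on simulated data. The study describes each library as a biological replicate of mouse, and the labels do not name the animals, so p-values measure the spread between these libraries. The genes and lists were chosen with earlier results of these data known. The named genes were the 10, the listed genes past both thresholds, the largest Tat difference per role among genes reaching 10 TPM, and the 3 most similar genes of each. Coordinates are from the GENCODE annotation of GRCm38 and promoters from RefSeq (GRCm38.p6). The alternatives changed the pseudocount (0.5 or 1), the filter (none, or 5 TPM), the scaling (median-ratio or quantile), the groups in the fit and the fold threshold, or left out each library. Leaving out F/F Tat libraries 7 and 8 together and scaling over all genes above 0 were added after the data were seen. Figures and exact tests used Python 3.11.15. All groups share a further engineered allele, which is not reported here.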

Additional observations from a re-analysis of the deposited data

Results flagged for a closer look

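In 30 sets of values (10 genes in 3 groups), 2 had a library apart from the others by Dixon's criterion, and chance flags about 1 set in 20. Sqstm1 was at 2015 TPM in F/F Tat library 11, with the next library at 2191 TPM. Wipi1 was at 1.27 TPM in ΔMye Tat library 23, with the next at 1.77 TPM. Both remained in all comparisons above.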

How the results depend on the processing

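TPM hold no counts, so what depth limits for the low genes Ulk1 and Wipi1 is unknown. No paired analysis was possible because the groups share no replicate numbers. Directions of the 10 genes with Tat were the same in all settings, and 1 gene, Becn1, changed its call with libraries 7 and 8 of F/F Tat left out together. The cause of changes with scaling was not tested.

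Of the 10 genes, the count with Tat (2 higher, 6 lower) became 4 higher and 5 lower with median-ratio scaling over either set of genes. It became 4 higher and 6 lower with quantile normalization, and 0 higher and 2 lower with the fold threshold. Between the Tat groups, 3 higher and 0 lower became 1 higher and 3 lower with either median-ratio scaling. They became 3 higher and 1 lower with quantile normalization, and 0 and 0 with the fold threshold. Against F/F PBS, the 2 higher and 6 lower in ΔMye Tat became 4 higher and 4 lower with either median-ratio scaling. They became 3 higher and 5 lower with quantile normalization, and 0 and 0 with the fold threshold. With 1 library left out, the counts were 2 higher and 6 lower in both comparisons with F/F PBS, and 3 to 5 higher and 0 lower between the Tat groups, with 5 reached without ΔMye library 23.

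For the 70 listed genes, 4 higher and 54 lower with Tat became 17 and 36 with median-ratio scaling and 18 and 35 with quantile normalization. They became 23 and 31 with scaling over all genes above 0, and 0 and 14 with the fold threshold. Between the Tat groups, 29 higher and 1 lower became 12 and 10 with median-ratio scaling, 14 and 7 with quantile normalization, 12 and 12 with scaling over all genes above 0, and 0 and 0 with the fold threshold. With 1 library left out the ranges were 4 to 5 higher and 51 to 56 lower with Tat, and 24 to 33 higher and 1 to 2 lower between the Tat groups (2 without F/F PBS library 3 or ΔMye library 19).

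Signs turned between the Tat groups for 3 genes. Sqstm1 was -0.13 with median-ratio scaling and -0.14 with scaling over all genes above 0. Becn1 was -0.16 and -0.17 with these, -0.079 with quantile normalization, -0.051 without F/F Tat library 7, -0.084 without library 8 and -0.24 without both, in a range of -0.084 to 0.13 with 1 library left out. Optn was 0.011 without F/F Tat libraries 7 and 8 together, 0.0091 without library 7, 0.0080 without library 9, 0.0017 without ΔMye library 20 and 0.012 without ΔMye library 23, in a range of -0.058 to 0.012. Of the 777 values of single genes under the alternatives, 731 kept direction and call, 21 newly passed, 12 no longer passed and 13 changed sign.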
